A study of Mus musculus with 6 samples.

Results

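Pan-neuronal differentiation genes are those that neurons of nearly every kind switch on as they leave the cell cycle, and their transcripts were measured in the dorsal forebrain of mouse embryos at E11.5. Members were 40 listed genes, matched by symbol or synonym to the probes of the authors' comparison table. All 40 were found, on 63 probes (Map2 and Map1b under the older names Mtap2 and Mtap1b), and each gene was read from the probe with the highest mean log2 processed signal over the 6 arrays. They make up 40 of the 21223 rows tested.

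The series holds 6 single embryos, 3 control and 3 mutant, whose dorso-medial pallium was dissected and frozen. Beyond the words control and mutant, the labels name no mutated gene, allele, Cre driver or strain, and the sources used here do not give what the mutants lack or gain, or in which cells. The series title places the work within Wnt/beta-catenin signalling and the order of fate decisions in cortical precursors. Litters 1, 2 and 3 each gave 1 control and 1 mutant, numbered here by litter. Litter 1 was hybridised on 1 slide and litters 2 and 3 on another, so litter 1 and its slide cannot be told apart.

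In the pallium at this age most cells are dividing radial glia and neuroepithelial cells, and the youngest neurons collect under the pial surface. A cell that commits to the neuronal fate, under proneural bHLH factors, builds a microtubule-rich axon and begins to make adhesion molecules, vesicle proteins and RNA-binding proteins that alter splicing and mRNA stability. Outside neurons many of these genes are held silent by the repressor Rest and its cofactors, and they serve glutamatergic and GABAergic neurons alike.

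Levels are given as log2 of the processed signal minus log2 of the 75th percentile of the same array, so that 0 marks a spot at that percentile and different probes are not set against each other. All 40 genes were well above background on all 6 arrays. Between 65.75% and 70.1% of spots were well above background, and 0 were saturated. The 75th percentile of signal ran from 1446.2 to 1833.2 on the control arrays and from 1206.9 to 1380.2 on the mutant arrays. Control 3 stood apart by low subpallial genes and mutant 1 by high meningeal genes, and results without each of them are given. Differences are mutant minus control on the log2 scale, given with a standard error (SE), and the small number of arrays limits their precision.

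Most pan-neuronal genes were higher in the mutants by a small amount, which was not the same in every embryo. The difference was positive for 37 of the 40 genes, against 55.0% of all rows, with a median of 0.32 (1.25-fold) against 0.02 over all rows. It ranged from -0.39 for Dpysl5 to 1.14 for Snap25. The exceptions with negative differences were Dpysl5, Uchl1 and Nsg1. RNA came from whole tissue pieces, in which more neurons and more RNA per neuron cannot be told apart.

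In limma, with Benjamini-Hochberg adjustment over all rows, 0 of the 40 passed an adjusted p of 0.05, against 0.033% of all rows, and the smallest adjusted p was 0.197, for Ncam1. In simulated data 0 of 200 genes with a true log2 difference of 0.5 passed this test. A true difference near the members' median would thus not be expected to pass. At an unadjusted p under 0.05, 11 genes were higher (27.5%, against 9.47% of all rows) and 1, Dpysl5, was lower (against 7.42%). All 3 mutants lay above all 3 controls for 12 genes, which is 30.0% of the members and 12.9% of all rows. These were Tubb3, Stmn2, Stmn3, Stmn4, Dpysl3, Gap43, Ncam1, Snap25, Chga, Stx1a, Myt1 and Celf4. Such genes are necessarily higher in the mutant of every litter, and no other member was. The count in every litter was thus also 12 (30.0%), near the 26.1% of all rows. All mutants lay below all controls for Uchl1 alone (11.9% of all rows), and the mutant was lower in every litter for Uchl1 and Dpysl5 (21.2% of all rows).

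Both the scaling and single embryos moved these counts. With arrays centred on their median, which moved the median of all rows by -0.10, the difference was positive for 35 genes with a median of 0.22, 3 genes were higher at an unadjusted p under 0.05 (4.75% of all rows) and 5 were above the controls in every mutant (5.95% of all rows). With litter as a block, 5 of the 40 were higher and 2 lower at an unadjusted p under 0.05, and the 5 were near the share over all rows, of which 12.3% were higher. The count of 11 became 4, 3, 30, 4 and 5 without control 2, control 3, mutant 1, mutant 2 and mutant 3, against 7.4%, 5.12%, 12.7%, 6.96% and 8.27% of all rows. The count of 12 became 23 without control 1 and 34 without mutant 1, against 20.4% and 24.1% of all rows. Leaving out an embryo could only keep or raise this count.

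**Figure D1:**
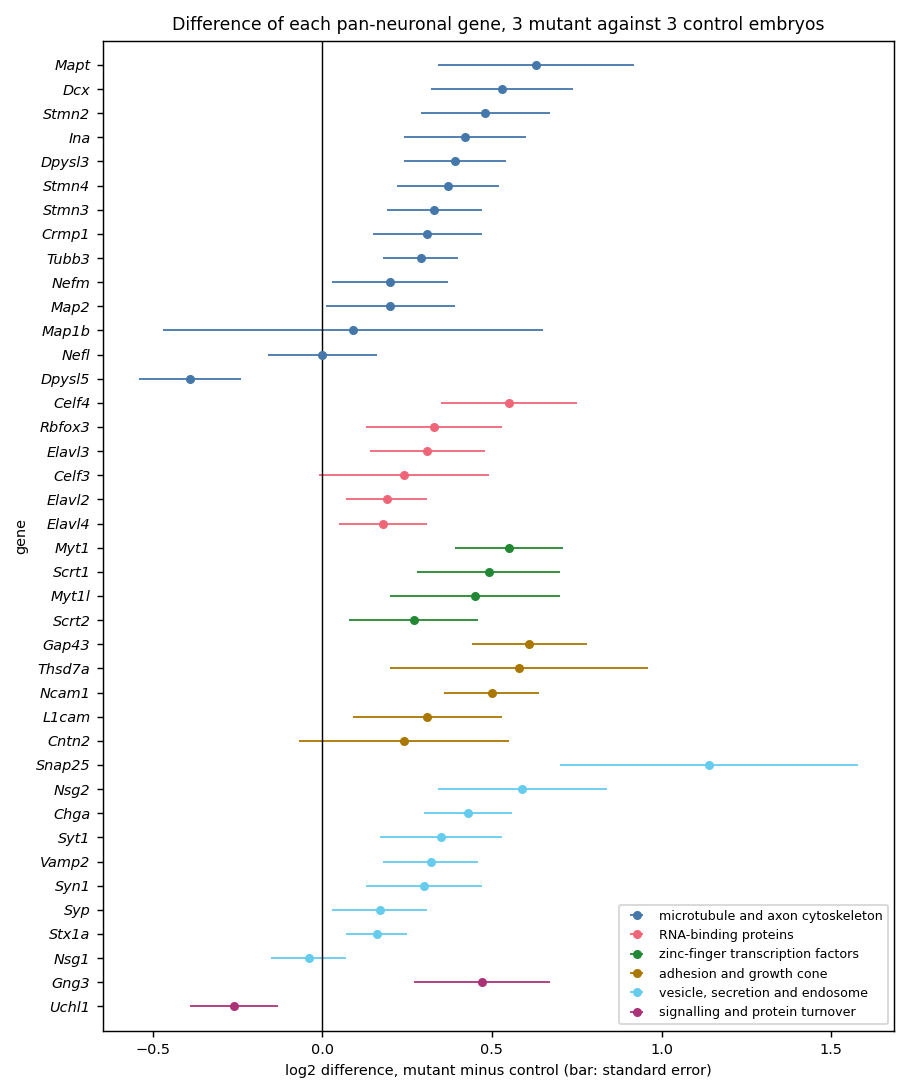
Log2 difference, mutant minus control, of the 40 pan-neuronal genes, as points with bars of 1 standard error, ordered by role and coloured by it. Points lie to the right of 0 for 37 genes, Snap25 is farthest right at 1.14, and Dpysl5 (-0.39), Uchl1 (-0.26) and Nsg1 (-0.04) lie to the left.

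RefSeq promoter windows (GRCm38.p6, 250 bases before to 50 after a start site) were matched by symbol for 26 of the 40 genes, in 51 windows, among 32851 windows of 27025 genes. Proneural bHLH factors bind 6-base motifs called E-boxes. CAGCTG was in 31.4% of the members' windows against 16.3% of all windows, CAGATG in 27.5% against 17.2%, and CAGGTG, the form bound by Scratch and Snail repressors, in 19.6% against 20.2%, each on either strand. The members' windows overlap in part and are richer in G and C (median 57.0% against 52.7%), and a member had 1.96 windows on average against 1.22 for all genes. Counted by gene, 61.5% of the 26 held any of the 3 E-boxes in a window, against 47.4% of all genes. TTCAGC and GGACAG, the ends of the long element that Rest binds, were in 23.5% and 21.6% of the members' windows, against 15.8% and 22.2% of all. AAGTTT, bound by the Myt1 family, was in 11.8% against 14.4%, and CTTTGA, bound by Tcf/Lef factors, was in 1.96% (1 window, of Stmn3) against 16%. These are matches of letters and do not show binding.

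Of the 12 genes above the controls in every mutant, 5 had a window and 3 of these held an E-box. The 250 bases before the start site of these 3 are shown, with E-boxes of the 3 forms in capitals. They come from chr12:102554691-102554940 (plus strand) for Chga, chr2:181314501-181314750 (minus strand) for Stmn3 and chr5:135023232-135023481 (plus strand) for Stx1a.
Chga: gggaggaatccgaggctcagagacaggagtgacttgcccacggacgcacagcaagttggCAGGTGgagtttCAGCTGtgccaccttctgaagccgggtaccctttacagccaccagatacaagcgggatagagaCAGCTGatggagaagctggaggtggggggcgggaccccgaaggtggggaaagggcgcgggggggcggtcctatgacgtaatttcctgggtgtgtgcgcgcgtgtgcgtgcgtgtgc
Stmn3: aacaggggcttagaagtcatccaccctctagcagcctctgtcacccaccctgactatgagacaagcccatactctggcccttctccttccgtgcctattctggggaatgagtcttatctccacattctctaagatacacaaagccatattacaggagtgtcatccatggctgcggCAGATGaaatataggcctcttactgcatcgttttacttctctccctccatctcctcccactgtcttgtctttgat
Stx1a: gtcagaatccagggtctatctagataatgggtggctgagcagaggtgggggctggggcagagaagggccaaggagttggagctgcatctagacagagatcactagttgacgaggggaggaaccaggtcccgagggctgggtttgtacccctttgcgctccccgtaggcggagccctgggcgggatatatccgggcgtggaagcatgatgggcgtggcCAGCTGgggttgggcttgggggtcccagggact

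The cytoskeletal genes, which build and regulate the microtubules and neurofilaments of the growing axon, had positive differences for 13 of 14 members, with a median of 0.32 and a range from -0.39 to 0.63. Tubb3, the beta-tubulin of neurons, was at 4.61, 4.59 and 4.54 in controls 1, 2 and 3 and at 4.67, 4.92 and 5.04 in mutants 1, 2 and 3 (difference 0.29, SE 0.11). The groups did not overlap, and mutant 1 stood 0.06 above its littermate. Doublecortin (Dcx), a microtubule-binding protein of migrating neurons, read 2.14, 2.01 and 1.91 in the controls, against 2.11, 2.64 and 2.89 in the mutants (0.53, SE 0.21). Here mutant 1 lay among the controls while mutants 2 and 3 were above all of them. Tau (Mapt), the microtubule-binding protein of the axon, had the largest difference of the group, from 1.43, 1.21 and 0.97 in the controls to 1.28, 1.85 and 2.36 in the mutants (0.63, SE 0.29). It too overlapped through mutant 1, and its difference within litter 3 was 1.39.

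The stathmins destabilise microtubules in growing neurites, and the 3 measured among the members did not overlap between groups. Stmn2 gave 2.75, 2.75 and 2.59 in control embryos against 2.81, 3.18 and 3.52 in mutants (0.48, SE 0.19). Stmn4 measured 3.74, 3.66 and 3.36 in control embryos and 3.78, 3.91 and 4.19 in mutant embryos (0.37, SE 0.15), and Stmn3 differed by 0.33 (SE 0.14). In all 3 the gap between mutant 1 and the highest control was small, since the differences within litter 1 were 0.06, 0.04 and 0.03.

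The collapsin response mediators, which link guidance signals to tubulin, differed among themselves. Dpysl3 read 4.71, 4.63 and 4.56 in the controls, against 4.72, 5.06 and 5.29 in the mutants (0.39, SE 0.15), without overlap, and Crmp1 differed by 0.31 (SE 0.16) with overlap. Dpysl5 ran the other way, from 2.63, 2.42 and 2.54 in the controls to 2.02, 1.94 and 2.46 in the mutants (-0.39, SE 0.15, adjusted p = 0.291). Mutant 3 lay within the control range, and its difference from its littermate was -0.08 against -0.61 and -0.48 in litters 1 and 2. A dimmer probe of Dpysl5 gave 0.13 (SE 0.19), so that the direction of this gene rests on 1 of its 2 probes.

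Neurofilament subunits, the intermediate filaments of axons, had small differences apart from alpha-internexin (Ina), the subunit of young neurons, at 0.42 (SE 0.18). The light subunit Nefl gave -1.25, -1.57 and -1.70 in control embryos against -1.56, -1.68 and -1.27 in mutants, a difference of 0.00 (SE 0.16) whose sign turned with normexp, quantile or median scaling. The medium subunit Nefm differed by 0.20 (SE 0.17) with overlap. Map2, of dendrites, also differed by 0.20 (SE 0.19).

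Map1b, a microtubule-associated protein of early axons, had the widest spread of the 40. It measured 1.57, 2.83 and 2.78 in control embryos and 1.43, 2.98 and 3.05 in mutant embryos (0.09, SE 0.56, and -0.01 with median centring). Both low values come from the slide of litter 1. A dimmer Map1b probe did not show these low values, with 0.46, 0.50 and 0.49 in the controls and 0.45, 0.77 and 0.85 in the mutants (0.21, SE 0.13). The values of both probes were set side by side after they were seen.

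All 6 RNA-binding proteins, which set the splicing and stability of neuronal mRNAs, had positive differences, from 0.18 to 0.55 with a median of 0.28. Celf4 had the largest, from 1.59, 1.38 and 1.35 in the controls to 1.61, 1.99 and 2.36 in the mutants (SE 0.20). Its groups did not overlap, though mutant 1 exceeded control 1 by 0.02. The mean of the Celf4 probes gave 0.39, since a dim probe was at 0.04 (SE 0.32). The Hu proteins Elavl2 (0.19, SE 0.12), Elavl3 (0.31, SE 0.17) and Elavl4 mark newborn neurons. Elavl4 had the smallest difference of the group, from 1.97, 1.72 and 2.0 in the controls to 1.90, 2.08 and 2.24 in the mutants (0.18, SE 0.13). In Rbfox3, the splicing factor known as NeuN (0.33, SE 0.20), in Celf3 (0.24, SE 0.25) and in the 3 Elavl genes, mutant 1 lay within the control range and mutants 2 and 3 above it.

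The 4 zinc-finger transcription factors, which repress non-neuronal or progenitor programmes in young neurons, had a median of 0.47. Myt1 read -2.20, -2.26 and -2.29 in the controls, against -2.01, -1.67 and -1.41 in the mutants (0.55, SE 0.16, adjusted p = 0.209). Every mutant stood above every control, and its controls lay close together (SD 0.05). Its paralogue Myt1l differed by 0.45 (SE 0.25) and its difference was positive on all 4 of its probes, while Scrt1, a Scratch repressor of the Snail superfamily, differed by 0.49 (SE 0.21). Scrt2 had the smallest difference, from 2.26, 2.32 and 2.34 in the controls to 2.14, 2.79 and 2.81 in the mutants (0.27, SE 0.19), with mutant 1 below all controls.

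The adhesion and growth cone genes had the highest median of the 6 roles, 0.50, with all 5 positive. Ncam1, a cell adhesion molecule of neuronal surfaces, gave 2.33, 2.23 and 2.14 in control embryos against 2.47, 2.81 and 2.92 in mutants (0.50, SE 0.14). Gap43, a growth cone protein that binds calmodulin and membrane lipids, measured 2.47, 2.39 and 2.18 in control embryos and 2.64, 2.99 and 3.23 in mutant embryos (0.61, SE 0.17, 1.52-fold). Both were above the controls in every mutant, and they had the smallest unadjusted p of the 40. Cntn2 (TAG-1), a contactin of early axons, was dim and dispersed, from -3.87, -3.93 and -3.67 in control embryos to -4.29, -3.10 and -3.34 in mutant embryos (0.24, SE 0.31). Mutant 1 was the lowest of the 6 embryos for it. L1cam, an adhesion molecule of axon bundles, differed by 0.31 (SE 0.22), and Thsd7a, a thrombospondin-repeat membrane protein, by 0.58 (SE 0.38), with 1.73 within litter 3 and -0.32 within litter 1.

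Vesicle, secretory and endosomal genes serve release of transmitter and peptides, and 8 of the 9 had positive differences (median 0.32). Snap25, a SNARE protein of the plasma membrane, had the largest difference of the 40 genes, from 1.69, 2.66 and 2.36 in the controls to 2.88, 4.25 and 2.98 in the mutants (1.14, SE 0.44, 2.2-fold). Its difference within litter 1, 1.19, was the highest of the 40 there, and mutant 2 stood above mutant 3. Chga (chromogranin A), a core protein of secretory granules, read 0.67, 0.48 and 0.43 in the controls, against 0.89, 0.79 and 1.18 in the mutants (0.43, SE 0.13). All 3 mutants were above all controls, and the difference was positive in litters 1, 2 and 3, at 0.23, 0.32 and 0.75.

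Of the remaining SNARE and vesicle genes, Stx1a (syntaxin, 0.16, SE 0.09) did not overlap between groups, and Vamp2 (synaptobrevin, 0.32, SE 0.14), the calcium sensor Syt1 (0.35, SE 0.18), Syn1 (synapsin, 0.30, SE 0.17) and Syp (synaptophysin, 0.17, SE 0.14) did. The gap in Stx1a was narrow, with mutant 1 at -1.84 and control 2 at -1.85, and its difference was 0.06 with median centring. The endosomal pair Nsg1 and Nsg2, which traffic neuronal receptors, parted. Nsg2 differed by 0.59 (SE 0.25). Nsg1 gave 4.14, 4.07 and 4.12 in control embryos against 4.12, 4.24 and 3.86 in mutants (-0.04, SE 0.11), with 1 mutant on each side of the control range, and was at 0.07 without mutant 3.

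The last pair of genes, of signalling and protein turnover, also parted. Gng3, a G-protein gamma subunit of neurons, measured 3.05, 2.87 and 2.70 in control embryos and 2.95, 3.51 and 3.59 in mutant embryos (0.47, SE 0.20), with mutant 1 among the controls. Uchl1, the ubiquitin hydrolase long used as the neuronal marker PGP9.5, read 2.54, 2.76 and 2.68 in the controls, against 2.16, 2.53 and 2.50 in the mutants (-0.26, SE 0.13, adjusted p = 0.367). It was the single gene whose mutants all lay below the controls, with differences of -0.38, -0.23 and -0.18 within litters 1, 2 and 3.

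**Figure D2:**
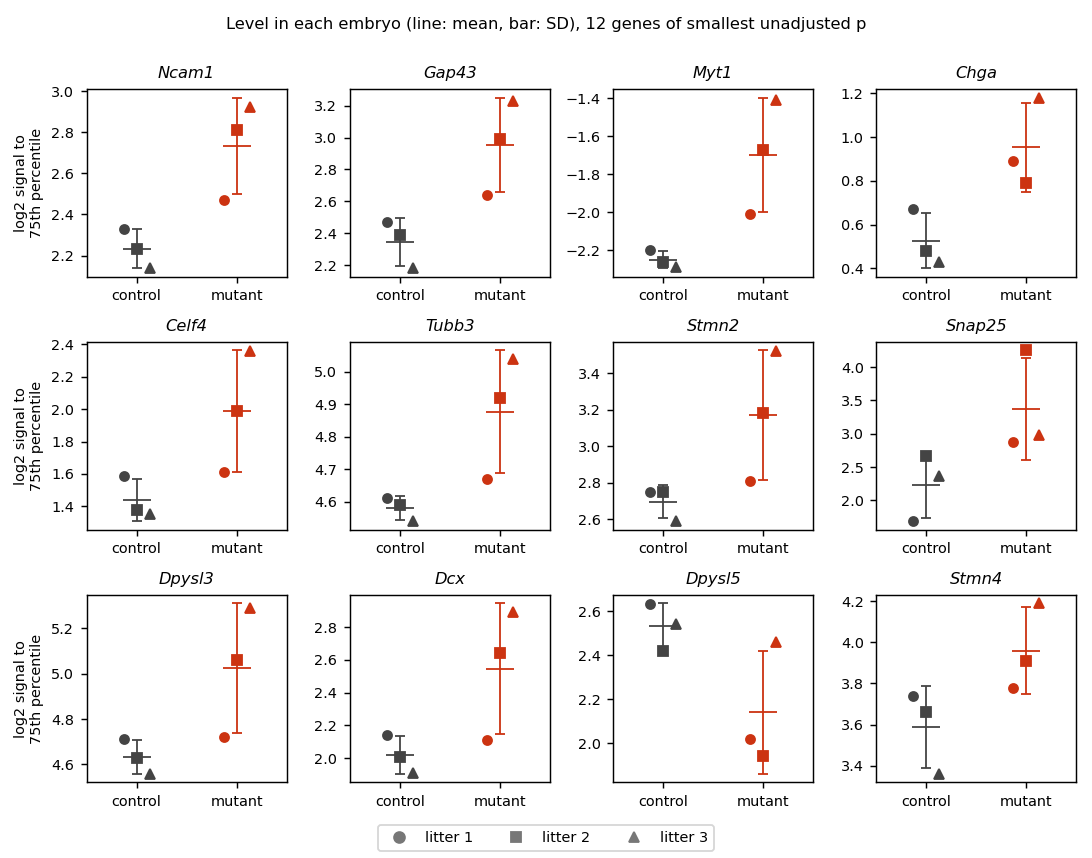
Level of the 12 pan-neuronal genes with the smallest unadjusted p in each embryo, as log2 signal relative to the 75th percentile of its array, with symbols for the litters, a line at the group mean and a bar of 1 SD (n = 3 in each group, each panel with its own axis). In Ncam1 the mutants run from 2.47 to 2.92 and the controls from 2.14 to 2.33, in Dcx mutant 1 (2.11) lies among the controls, and Dpysl5 is lower in the mutants.

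The embryos of a group differed from each other across the set. Relative to the control mean, the median of the 40 genes was 0.10, 0.00 and -0.09 in controls 1, 2 and 3, and 0.04, 0.40 and 0.60 in mutants 1, 2 and 3. Mutant 1 thus lay within the range of the controls, while mutants 2 and 3 were above it. It was the lowest of the mutants for 35 of the 40 genes, against 38.7% of all rows, and mutant 3 was the highest for 34, against 37.3%. Control 1 was the highest control for 28 genes (37.0% of all rows) and control 3 the lowest for 27 (30.3%). The median SD between mutants was 0.30, against 0.13 between controls, and was the larger for 37 of the 40 genes (66.8% of all rows, whose median SDs were 0.16 and 0.11).

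Compared within litters, the set had a median near 0 in litter 1 and was higher in the mutant in the other two. In litter 1 the median difference was -0.07 and 12 of 40 genes were positive, in litter 2 it was 0.41 with 37 positive, and in litter 3 it was 0.69 with 37 positive. Over all rows 52.0%, 52.2% and 55.0% were positive. For 24 genes the difference was positive in litters 2 and 3 and negative in litter 1, as for 14% of all rows. For 34 genes both mutants 2 and 3 exceeded all 3 controls (24.1% of all rows), and mutant 1 was within the control range for 17 of these (7.25%). Mutant 1 was below all controls for 7 genes, Map2, Map1b, Syp, Cntn2, Dpysl5, Scrt2 and Uchl1, a smaller share than the 31.7% of all rows.

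The same order was seen in the roles. The medians within litters 1, 2 and 3 were -0.05, 0.32 and 0.68 for the cytoskeleton, -0.13, 0.41 and 0.58 for RNA-binding proteins, and -0.09, 0.52 and 0.94 for zinc-finger factors. They were -0.32, 0.59 and 0.78 for adhesion and growth cone genes and -0.01, 0.32 and 0.62 for vesicle genes. In each of these 5 roles the median was below 0 in litter 1 and highest in litter 3. On the slide of litters 2 and 3 alone, a comparison chosen after seeing the data, the median was 0.55, 29 genes were higher at an unadjusted p under 0.05 (2436 of all 21223 rows) and 0 passed in limma. Without mutant 1 the median of the set was 0.50, and without mutant 3 it was 0.20.

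The differences of single genes were also set against each other between litters. Across the 40 genes, which share the same arrays and are not independent, the differences of litters 1 and 2 correlated at r = 0.61, of litters 2 and 3 at 0.45 and of litters 1 and 3 at 0.15. Without Snap25 r was 0.32, 0.57 and 0.24 in the same order, and over all rows it was 0.42, 0.42 and 0.26.

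**Figure D3:**
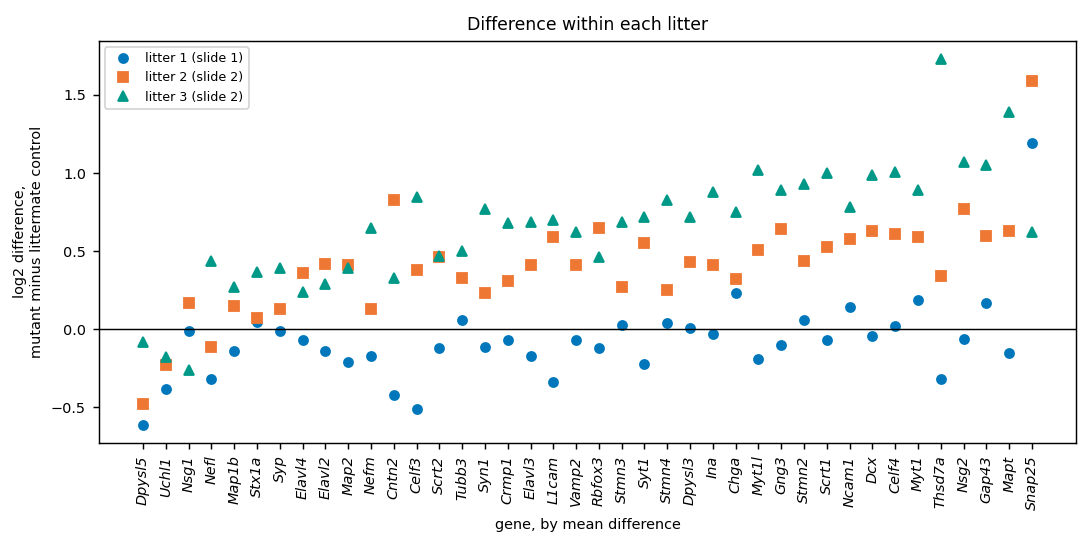
Log2 difference of mutant minus littermate control for each of the 40 genes in litters 1 (circles), 2 (squares) and 3 (triangles), in order of the mean difference. The litter 1 points scatter around 0 (median -0.07) while those of litters 2 and 3 are mostly above it (medians 0.41 and 0.69), and Snap25 is high in litters 1 and 2.

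Other probes of the same genes gave the same direction with 1 exception. Of the 40 genes, 24 had 1 probe and 16 had several well above background on at least 3 arrays, and in 15 of the 16 these probes all lay on the same side of 0. The exception was Dpysl5, whose bright probe is on chromosome 5 from 31101367 to 31101426 (mm9) and whose dim probe is from 31050327 to 31050386. A further Ncam1 probe, well above background on only 2 arrays, was at -1.59 and not used. Dimmer probes of Dcx gave 0.62 and 0.66 beside 0.53, that of Cntn2 gave 0.57 (SE 0.17) beside 0.24, and that of Stmn4 gave 0.45 beside 0.37. Lower values came from dimmer probes of Ncam1 (0.37 beside 0.50), Ina (0.38 beside 0.42), Thsd7a (0.48 beside 0.58) and Mapt (0.60 and 0.53 beside 0.63). In Celf4 and Myt1l the dimmer probes lay on both sides of the bright one, and those of Celf4 gave 0.59 and 0.04 (SE 0.32) beside 0.55. The mm9 positions of probes described above are chromosome 9 from 49310320 to 49310379 for Ncam1, chromosome 16 from 42248714 to 42248773 for Gap43, chromosome 2 from 136607709 to 136607768 for Snap25, chromosome 8 from 125945850 to 125945909 for Tubb3 and chromosome 2 from 181562013 to 181562072 for Myt1. Whether they lie in coding sequence or an untranslated region was not analysed here.

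In the authors' deposited table, made from the same 6 arrays, 0 of the 40 genes had an fdr under 0.05 on the higher side, against 0.4% of its 27269 probes. The lowest fdr values in the authors' deposited table were 0.0733 for Gap43, 0.0738 for Ncam1, 0.0915 for Chga and 0.0988 for Celf4, and the fdr was NA for Nsg1 and Stx1a. The authors' deposited table gave log2 ratios of 0.62 for Gap43, 1.15 for Snap25 and -0.34 for Dpysl5. For Nefl the ratio in the authors' deposited table was -0.10 on the log2 scale, against a difference of 0.00 here.

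Upstream of the pan-neuronal genes stand the proneural factors and other genes of neurogenic commitment. Of 20 listed, 17 had positive differences (median 0.28), 0 passed the adjusted test, and 8 were higher at an unadjusted p under 0.05. Sox11, a factor that activates Tubb3 and other pan-neuronal genes, gave 4.30, 4.42 and 4.37 in control embryos against 4.68, 4.79 and 4.74 in mutants (0.37, SE 0.07). Insm1, a zinc-finger factor of cells leaving the apical surface, measured 3.79, 3.86 and 3.70 in control embryos and 4.19, 4.56 and 4.67 in mutant embryos (0.69, SE 0.14). Dll3, a Notch ligand of newly committed cells, differed by 0.42 (SE 0.10). In these 3 genes mutant 1 was above all controls, while the list median was -0.02, 0.43 and 0.42 in mutants 1, 2 and 3 and between -0.02 and 0.04 in the controls.

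A further 39 genes of postmitotic neurons, of 40 listed, were laid out much like the members. The difference was positive for 37 (median 0.34), with 9 higher and 1 lower at an unadjusted p under 0.05 and 0 past the adjusted test, and the list median was 0.03, 0.41 and 0.57 in mutants 1, 2 and 3. The adhesion molecule Nrcam read 1.94, 1.31 and 1.49 in the controls, against 2.79, 2.57 and 2.94 in the mutants (1.18, SE 0.19, adjusted p = 0.106). Rtn1 (reticulon, 0.53, SE 0.11) and Gdap1l1 (0.55, SE 0.14) followed. In Nrcam every mutant exceeded its littermate by at least 0.84, whereas the members' median within litter 1 was -0.07.

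Known regulators of the set had a small median difference, but the list mixes the repressor Rest with splicing activators, so its median describes neither. Of 10 listed, which include Rest and its cofactors Rcor1 and Rcor2, 6 were positive (median 0.03, and -0.07 with median centring), and 0 were past an unadjusted p of 0.05 in either direction. The splicing activator of neuronal microexons Srrm4 gave 1.32, 1.36 and 1.39 in control embryos against 1.32, 1.85 and 2.06 in mutants (0.39, SE 0.19), and its relative Srrm3 differed by 0.45 (SE 0.20). Srrm4 followed the order of the pan-neuronal genes, with mutant 1 at the level of control 1. Rcor1 differed by 0.16 (SE 0.08). Rest was at -0.17 (SE 0.13), with -0.05, 0.01 and -0.47 within litters 1, 2 and 3. Ptbp1 was at -0.16 (SE 0.08), with 0.01, -0.23 and -0.27.

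Progenitor and regional genes were measured beside the set. Of 12 genes of radial glia, 9 were positive (median 0.21) and 5 were higher at an unadjusted p under 0.05. Fabp7, a fatty-acid-binding protein of radial glia, differed by 1.39 (SE 0.13, adjusted p = 0.0551), the glutamate transporter Slc1a3 by 0.99 (SE 0.18) and the homeobox factor Pax6 by 0.33 (SE 0.09). All 6 genes of dorsal telencephalon identity, Emx1 among them, were well above background on all 6 arrays, beside the label dorsal forebrain. Their median difference was -0.54, with Emx2 at -0.92 (SE 0.10, adjusted p = 0.0676), Lhx2 at -0.58 (SE 0.09) and Dmrta2 at -0.50 (SE 0.09).

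Lists of neuron classes did not shift in 1 pattern. The 9 genes of pallial glutamatergic neurons had a median of -0.54, 0.43 and 0.41 in mutants 1, 2 and 3, against -0.06 to 0.14 in the controls. Within this list Fezf2, a factor of deep-layer projection neurons, measured 1.39, 1.40 and 1.62 in control embryos and 0.51, 0.89 and 0.58 in mutant embryos (-0.81, SE 0.13), below all controls, while Bcl11b differed by 0.35 (SE 0.09) and the glutamate transporter Slc17a6 by 0.34 (SE 0.18). Cajal-Retzius genes were positive for 6 of 8 (median 0.27), with medians of 0.13, 0.36 and 0.08 in mutants 1, 2 and 3.

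Subpallial genes marked 1 control as different from the other embryos. The median of 10 genes of GABAergic neurons and ventral progenitors was 1.51, 0.87 and -2.33 in controls 1, 2 and 3, and 1.45, 0.88 and 2.03 in mutants 1, 2 and 3. Dlx2, of ventral progenitors, read 1.87, 1.58 and -1.27 in the controls, against 2.16, 1.58 and 2.74 in the mutants. Of the 10 genes, 8 were well above background on all arrays, and the log2 of the list's summed signal ran from 0.88 to 3.29 in the controls and from 3.54 to 4.11 in the mutants. Control 3, the embryo with the low subpallial level, was also the lowest control for most pan-neuronal genes, and the part of subpallial tissue in their difference was not tested. Without control 3 the median of the pan-neuronal genes was 0.28 and 36 of 40 were positive. The subpallial medians of littermates were close in litter 1 (1.51 and 1.45) and litter 2 (0.87 and 0.88), but not every gene followed them. Lhx6, the gene of smallest p in the list (difference 1.33, SE 0.46), was higher in the mutant by 1.36, 1.81 and 0.83 within litters 1, 2 and 3.

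Markers of non-neural cells separated the mutants from each other. The median of 8 genes of meninges and head mesenchyme was 0.25, -0.02 and -0.26 in controls 1, 2 and 3 and 1.04, -0.24 and -0.72 in mutants 1, 2 and 3. This was the reverse of the order of the pan-neuronal genes among the mutants, but the same order as theirs among the controls. The log2 of the meningeal list's summed signal ran from 4.26 to 4.85 in the controls and from 3.80 to 5.4 in the mutants. Endothelial genes (6, mutant medians 0.12, -0.03 and -0.54), genes of microglia and macrophages (6, 0.02, -0.50 and -0.52) and erythroid genes (7, 0.05, 0.02 and -0.90) also had their lowest median in mutant 3. For microglia and macrophages mutants 2 and 3 were close, and Csf1r, Cx3cr1, Aif1 and C1qa were lower in mutant 2 than in mutant 3. Summed signals of the endothelial, microglial and erythroid lists, on the log2 scale, were 2.59 to 2.83, 0.98 to 1.24 and 9.36 to 9.55 in the controls. In the mutants they were 2.22 to 2.85, 0.55 to 1.35 and 8.84 to 9.53. The median differences of these 4 lists were 0.59, 0.25, -0.10 and 0.04 within litter 1, -0.14, -0.14, -0.52 and 0.06 within litter 2, and -0.32, -0.55, -0.36 and -1.02 within litter 3. The part of these cells in the order of the mutants was not tested.

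Markers of neurons and regions outside the cortex were measured in part. Of the genes of peripheral and sensory neurons, Prph, Scn10a and Tlx3 were well above background on 0 of 6 arrays, and 3 others were measured, with a median difference of 0.35. Of these Pou4f1, a homeobox factor of sensory neurons, differed by 0.35 (SE 0.08). Of 7 genes of the diencephalon and thalamic eminence, 6 were measured (median 0.39), with 4 well above background on all arrays and Barhl2 on none. Gbx2, dim and of smallest p in the list, went the other way at -0.62 (SE 0.20), but was at 0.01 with normexp. Otx2 differed by 0.60, -0.33 and 3.66 within litters 1, 2 and 3, and its control 3 was low (-2.77).

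**Figure D4:**
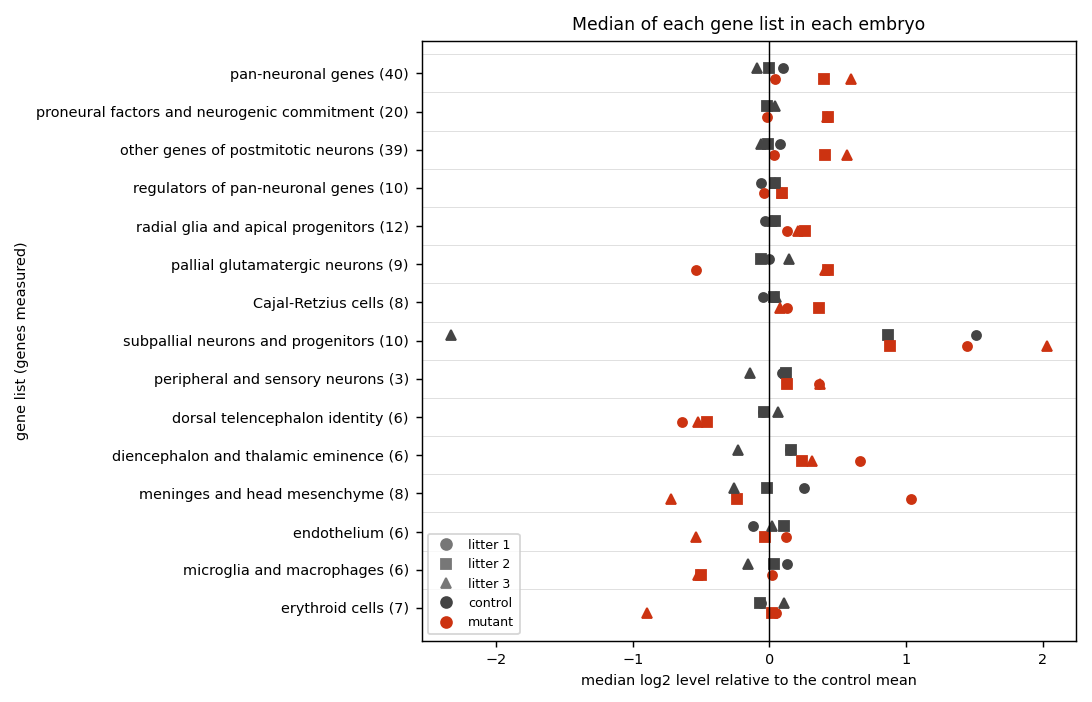
Median log2 level of each gene list in each embryo relative to the control mean, controls in grey and mutants in red, with a symbol for each litter. The pan-neuronal genes and the other genes of postmitotic neurons share 1 layout (mutant 1 near 0.04, mutants 2 and 3 from 0.40 to 0.60). Meningeal genes run in the opposite order among the mutants but in the same order among the controls, and control 3 stands at -2.33 for subpallial genes.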

How the data were processed

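Total RNA of 6 single embryos was hybridised to 1-colour Agilent arrays (design 026655, grid build mm9). The authors extracted spot intensity on a linear scale with Feature Extraction 10.7.3.1, per the file headers. Background was subtracted within each array by that software, with no scaling of arrays to one another. The authors' deposited table holds log2 values of 27269 probes, a log2 ratio and linear ratio, and a p-value and fdr, by a test whose steps are not given in the sources used here. The submitters' processing notes name limma. Numbers of the sample columns in the deposited table do not follow the titles, so they were used by group.

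Outlier spots were dropped, spots of a probe averaged, and log2 signals scaled to each array's 75th percentile. Kept were probes flagged well above background on 3 or more of 6 arrays, with the brightest probe of each gene (21223 rows; 93 missing probe values). limma 3.58.1 in R 4.3.3 (lmFit, eBayes, two-sided) compared the groups, with Benjamini-Hochberg adjustment over all rows. Python 3.11.15 and matplotlib 3.10.9 were used for tables and figures, and the fit was checked on simulated data. At an adjusted p under 0.05 it recovered 0.0%, 63.5% and 84.5% of 200 genes with true log2 differences of 0.5, 1.0 and 2.0.

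Members and lists were chosen with earlier results of these data known. Values in every embryo are given for the 12 members of smallest unadjusted p, those with negative differences, and the largest and smallest difference in each role. Of the other lists up to 3 genes of smallest p are named, and further genes were chosen after their values were seen.

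Litters pair the embryos, per the labels. The deviations of littermates from their group means had correlations of 0.31, 0.359 and 0.109 (litters 1, 2 and 3). Between a control and a mutant of different litters they ran from -0.411 to 0.106, so that litter 3 did not stand out. With litter as a block 5 members were higher and 2 lower at an unadjusted p under 0.05 (limma), against 11 and 1 without it, and 0 passed in both. Over all rows 12.3% were higher with the block and 9.47% without it, so that the blocked count of 5 was near that share. The labels describe single embryos, so the spread includes that between embryos.

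Alternatives were normexp background correction (offset 50, on the median rather than the mean signal of spots), quantile normalization, median centring, other filters, averaging of all probes of a gene, a block for litter or for slide, a variance trend with robust variance, the authors' log2 values, an adjusted p under 0.1 and omission of each embryo. Slide 2 alone was added after seeing the data.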

Additional observations from a re-analysis of the deposited data

How the results depend on the processing

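No setting tried brought a pan-neuronal gene past an adjusted p of 0.05 in limma (17 settings, smallest adjusted p 0.0908, for Gap43 with normexp, largest 0.549 without control 3), with 3 to 30 of the 40 higher at an unadjusted p under 0.05, among them 18 with normexp (21.4% of all rows), 17 with trend and robust variance (9.32%), 18 with the authors' values (7.08%) and 6 without a filter (20.5%, so that the members were below the share over all rows), against 11 (9.47%). Of 680 values of single members in these settings, 668 kept their direction and 12 turned, in 3 genes. Nefl was at -0.03 with normexp, -0.04 with quantile normalization, -0.10 with median centring and -0.10 with the authors' values, and between -0.12 and 0.13 with an embryo left out. Map1b was at -0.01 with median centring and between -0.32 and 0.62 with an embryo left out, and Nsg1 was between -0.12 and 0.07. The number of members above the controls in every mutant, 12, was 5 with median centring (5.95% of all rows), 36 on slide 2 alone (31.2%) and from 12 to 34 with an embryo left out (15.1% to 24.1%, against 12.9% with all 6), and the number higher in every litter, 12, was 5 with median centring. Leaving out arrays cannot make separate groups overlap, so on slide 2 alone or without an embryo the first count could only stay or rise. The count in every litter has no value with an embryo left out, on slide 2 alone or with the authors' values, whose columns are not tied to embryos.

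Over all rows, 7 genes passed (28.6% of them higher). The number was 121 with normexp (48.8% higher), 15 with quantile normalization, 24 with median centring, 26 with the filter on all 6 arrays, 2 with the mean of probes, 144 with trend and robust variance, 22 with the authors' values (22.7% higher) and 79 at an adjusted p under 0.1. It was 0 without a filter (7936 at an unadjusted p under 0.05, limma), 0 with litter as replicate block (4207), 0 with slide as a block (4167), 0 on slide 2 alone (3864) and from 0 to 1 with an embryo left out, the 1 being without mutant 1. Without the block 3584 were at an unadjusted p under 0.05. Paired by litter, the members' median was 0.32 and 37 were positive. The cause of these changes was not tested. With 3 embryos in each group, the number of arrays limits the precision.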
